A study of Mus musculus with 30 samples.

Results

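The Obox genes (oocyte-specific homeobox) encode homeodomain transcription factors and lie in a cluster on mouse chromosome 7. The 5 genes described here were Obox1, Obox2, Obox3, Obox5 and Obox6. They were chosen by their symbols from 55 Obox rows in an expression table of 49585 rows. Earlier results of these data were known at that point. All 5 were above the filter on low values, a mean of at least 1 FPKM (fragments scaled to transcript length and library size) over the libraries, which left 12120 rows. Obox3 passed it with a mean of 0.997 FPKM in the control libraries and 1.25 FPKM in the knockdown libraries.

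RNA-seq libraries came from 8-cell embryos of the cross BDF1 x BDF1, cultured in KSOM medium. The groups were control knockdown and Yy1 knockdown with the siRNA numbered 1, with 2 libraries each. The series title places them in a study of nucleosome remodelling by YY1, a zinc finger transcription factor. The labels give neither the number of embryos per library nor whether replicates came from separate collections, so p-values below cover only how far these 4 libraries scatter, and part of that scatter may be technical. Libraries held 29302489 to 34429515 fragments, recovered from the steps between FPKM values. Intervals from fragments cover counting error only.

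As background, transcripts of Obox1, Obox2 and Obox5 are stored in the growing oocyte, whereas Obox3 is transcribed from the embryo's own genome soon after fertilization. OBOX proteins bind DNA through their homeodomain and help to start transcription from the embryonic genome, and the members can stand in for each other. Obox6 is expressed in preimplantation embryos, and mice that lack it alone develop.

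Obox copies resemble each other closely in the upstream windows compared here. Transcript sequences were not compared, so the windows do not show how reads could be assigned to the copies. In the RefSeq table of GRCm38.p6, 51 Obox rows lay on chromosome 7 between 14517971 and 15839679, a span of 1321.7 kb, and 47 of the 55 rows were annotated as pseudogenes. The 5 genes occupied the last 450.8 kb. The upstream windows of 3 of them are printed 5′ to 3′ from the RefSeq promoter table, because they show the resemblance base by base. Capitals mark the parts of runs shared with other Obox windows: a 25-base run held by the 5 Obox windows in the table (Obox1, Obox2, Obox3, Obox5 and Obox7), then the first 24 bases of a 42-base run held by all but the Obox2 window.
Obox1: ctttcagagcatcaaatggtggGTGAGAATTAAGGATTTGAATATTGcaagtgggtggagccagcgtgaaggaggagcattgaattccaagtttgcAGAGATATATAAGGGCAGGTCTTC
Obox5: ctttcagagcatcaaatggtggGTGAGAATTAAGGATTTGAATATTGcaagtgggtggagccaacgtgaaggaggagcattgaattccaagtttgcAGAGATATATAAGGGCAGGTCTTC
Obox3: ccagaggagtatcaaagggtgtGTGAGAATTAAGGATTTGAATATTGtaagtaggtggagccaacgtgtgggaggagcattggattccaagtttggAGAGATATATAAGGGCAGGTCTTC

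The Obox1 stretch is chr7:15547137-15547256 on the plus strand, from base -120 to -1 before the annotated start. The Obox5 stretch is chr7:15750238-15750357 on the plus strand, from -132 to -13, and the Obox3 stretch is chr7:15639789-15639908 on the minus strand, from -131 to -12. Over these 120 bases Obox1 and Obox5 differed at 1 base, Obox1 and Obox3 at 15, and Obox5 and Obox3 at 14. The Obox2 and Obox1 windows shared an identical run of 203 bases, at different distances from the start. The windows reach 250 bases before and 50 after each start. The 25-base run begins at -1 in the Obox2 window. In the printed windows the 42-base run starts 74 bases after the start of the 25-base run. At that spacing it would lie beyond the end of the Obox2 window, so its lack there shows no difference of sequence. Obox6 had no promoter entry, so the 5 windows are those of the other 4 genes and of Obox7. The YY1 motif letters GCCATNTT, searched on both strands, were in none of the 5 Obox windows and in 6.05% of 32851 promoters. The shorter CCATNTT, which those letters contain, was also in none and in 16.1% of promoters. At such shares, none in 5 windows that share long runs says little about YY1 sites at Obox promoters. The bicoid-type homeodomain letters TAATCC occurred once, at -168 of Obox3 on the minus strand, and in 7.06% of promoters.

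Yy1 itself was listed at 77.7 and 71.2 FPKM in control replicates 1 and 2 and at 5.89 and 7.98 FPKM in Yy1 knockdown replicates 1 and 2. Both knockdown libraries lay far below both controls, in the direction of their labels. The log2 fold change of FPKM + 1, the scale of every fold change below, was -3.26, and limma's Benjamini-Hochberg adjusted p was 0.0556. On this scale the change of a low gene is understated. Of 20 markers of the 8-cell embryo, 18 were above the filter, among them Pou5f1, a pluripotency factor, and Tead4, a trophectoderm factor. Among 18 cumulus and granulosa markers 1 was above it (Amhr2) and 6 were at 0 in all libraries, Fshr and Inha among them. Their summed level was 7.66 and 6.04 FPKM in the controls and 9.95 and 9.43 FPKM in the knockdown libraries. Of 15 sperm markers none was above the filter, and of 10 blood markers 1 was (Cd68, a macrophage marker, at 1.43 and 1.14 FPKM in the controls and 2.33 and 3.04 FPKM after knockdown) and 4 were at 0. The blood markers summed to 2.74 and 1.75 FPKM in the controls and 3.59 and 4.79 FPKM after knockdown. The cumulus and blood sums were thus higher in both knockdown libraries. Most of each sum in every library came from Amhr2 or Cd68, so the sums say little about the other markers. Amhr2 was at 5.35 and 4.74 FPKM in the controls and 7.80 and 7.30 FPKM after knockdown. Of the cumulus markers 7 had the higher mean after knockdown and 5 the lower, and of the blood markers 5 and 1. The part of such cells in the Obox values was not tested.

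None of the 5 Obox genes changed at an adjusted p under 0.05. In the same limma fit 0 of 12120 rows passed (0%), so this count says little about the 5 genes. None had an unadjusted p under 0.05 either, which 8.9% of tested rows had (4.22% upward and 4.69% downward). With limma-voom on the recovered fragments 0 of 5 passed after adjustment, against 0.132% of rows, and Obox5 alone had an unadjusted p under 0.05, as 4.23% of rows had in the upward direction. The median log2 fold change of the 5 was 0.152, beside 0.0242 over all tested rows, with 4 positive values and 1 negative. Libraries of embryos are bulk samples, in which fewer cells with a transcript and less transcript per cell cannot be told apart.

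Obox6 was the most abundant Obox row at this stage. Its level was 332 and 231 FPKM in the controls and 325 and 262 FPKM after Yy1 knockdown, from 9769 to 15382 fragments per library. The 2 groups overlapped, with the highest and the lowest library both among the controls. The means were 282 ± 71.4 FPKM (SD, n = 2) and 294 ± 44.6 FPKM (SD, n = 2). The log2 fold change was 0.07 with a 95% interval from -0.47 to 0.62 (limma adjusted p = 0.939), so the data leave room for a change of either sign within those bounds. The gene (ENSMUSG00000041583, chr7:15833250-15839679) ranked at 273 of 12120 rows by control mean. None of the 31 tested genes on a list of other homeobox genes had a higher control mean. Over the 4 libraries its mean was 86.5 times that of the next of the 5 genes.

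**Figure D1:**
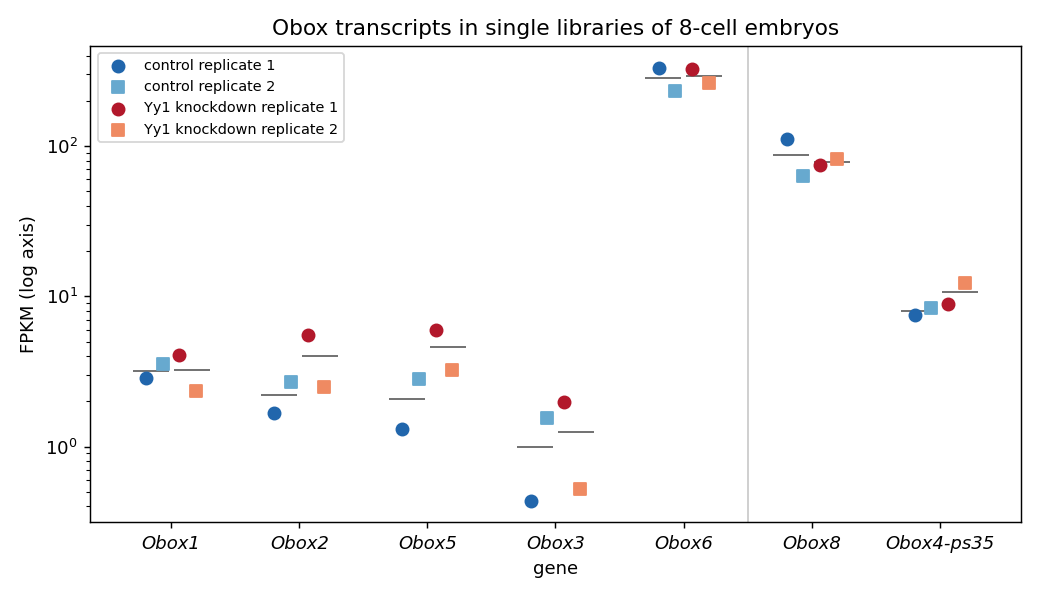
FPKM on a log axis for the 5 genes and, right of the vertical line, the 2 other Obox rows with the highest levels. Points are single libraries and short lines group means (n = 2). Obox6 stands far above the other 4 genes, and Yy1 knockdown replicate 1 is the highest library for those 4.

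Below Obox6, the order of mean levels over the 4 libraries was Obox5 (3.33 FPKM), Obox1 (3.21 FPKM), Obox2 (3.10 FPKM) and Obox3 (1.12 FPKM). Pooled over the 4 libraries, the ranges of neighbours in this order overlapped for these 4 genes, and only Obox6 had a range apart from its neighbour. Within each library, however, Obox3 was the lowest, with a 95% Poisson interval below those of Obox1, Obox2 and Obox5. The order of Obox5, Obox1 and Obox2 differed between libraries and is not resolved.

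Among the genes whose transcripts the oocyte stores, Obox5 had the largest difference between groups. It was listed at 1.31 and 2.83 FPKM in the controls and at 5.94 and 3.24 FPKM after Yy1 knockdown, from 96, 190, 432 and 203 fragments. Both knockdown libraries lay above both controls. The gap between control replicate 2 (95% Poisson interval 2.44 to 3.26 FPKM) and knockdown replicate 2 (2.81 to 3.72 FPKM) was within counting error. Group means were 2.07 ± 1.08 and 4.59 ± 1.90 FPKM (SD, n = 2), a ratio of 2.22. On the log2 scale the difference was 0.87 with a 95% interval from -0.06 to 1.79 (limma adjusted p = 0.577). Limma-voom on fragments gave a log2 fold change of 1.20 (limma-voom adjusted p = 0.383). Obox5 was the 1 gene of 5 whose groups did not overlap in the upward direction, which 21.8% of tested rows did, and none of the 5 did so downward, against 18.9% (40.7% in either direction). Its annotated span is chr7:15750370-15759274 (ENSMUSG00000074366).

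Obox2 (ENSMUSG00000074369, chr7:15388851-15398545) was listed at 1.68 and 2.71 FPKM in the controls and at 5.53 and 2.49 FPKM after Yy1 knockdown. Knockdown replicate 1 was the highest library, while replicate 2 lay between the controls. The means were 2.19 ± 0.730 and 4.01 ± 2.15 FPKM (SD, n = 2). The log2 fold change of 0.60 had a 95% interval from -0.33 to 1.53 (limma adjusted p = 0.674).

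Obox1 (ENSMUSG00000054310, chr7:15547257-15556846) was listed at 2.87 and 3.52 FPKM in the controls and at 4.09 and 2.35 FPKM after Yy1 knockdown. Here the knockdown libraries were the highest and the lowest of the 4, so the controls lay inside their range. The means were 3.20 ± 0.456 and 3.22 ± 1.23 FPKM (SD, n = 2). The log2 fold change was -0.02, with a 95% interval from -0.72 to 0.68 (limma adjusted p = 0.989). It differs in sign from the ratio of means, 1.01.

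Obox3, which the embryo transcribes itself, was the lowest of the 5 (ENSMUSG00000066772, chr7:15625306-15639777). It was listed at 0.437 and 1.56 FPKM in the controls and at 1.98 and 0.524 FPKM after Yy1 knockdown, from 48, 156, 215 and 49 fragments. Each group held 1 library near 0.5 FPKM and 1 above 1.5 FPKM, so the spread within groups exceeded the difference between them. The log2 fold change was 0.15 with a 95% interval from -1.02 to 1.32 (limma adjusted p = 0.943).

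Yy1 knockdown replicate 1 was the highest library for Obox1, Obox2, Obox3 and Obox5, 4 of the 5 genes. This library was the highest for 28.1% of all tested rows. The summed level of these 4 genes was 6.29 and 10.6 FPKM in the controls and 17.5 and 8.61 FPKM after knockdown, so replicate 2 lay within the controls. As medians of log2(FPKM + 1) less the control mean, the 4 genes stood at 0.84 in knockdown replicate 1 and -0.09 in replicate 2. The corresponding medians over 39 tested genes of a 52-gene oocyte list were 0.35 and -0.03, and over all tested rows 0.04 and -0.0009. The part of oocyte transcripts in the Obox values was not tested.

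With Obox6 included, the 5 genes summed to 338.7 and 242.1 FPKM in the controls and to 342.8 and 270.8 FPKM after Yy1 knockdown. The groups overlapped, and the means of 290.4 ± 68.3 and 306.8 ± 50.9 FPKM (SD, n = 2) differed by less than the spread of either group. Obox6 supplied 94.9% to 98.1% of this sum, which therefore follows Obox6 and hides the 4 lower genes. All 55 Obox rows together summed to 475.5 and 329.3 FPKM in the controls and to 460.1 and 393.1 FPKM after knockdown, so Obox6 was a smaller part of the whole family's level. As a share of all fragments the 5 genes held 0.0459% and 0.0333% in the controls and 0.0473% and 0.0370% after knockdown.

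**Figure D2:**
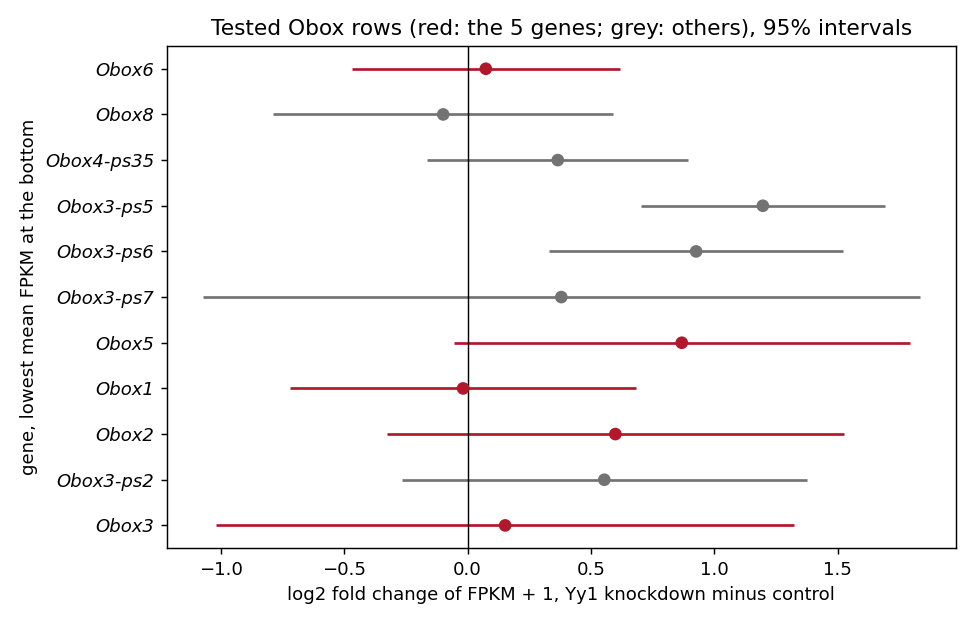
Log2 fold change of FPKM + 1, Yy1 knockdown minus control, with 95% intervals from limma, for the 11 tested Obox rows in order of mean level. The intervals of the 5 genes (red) all include 0, and those of Obox3-ps5 and Obox3-ps6 do not before adjustment over all rows.

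Ratios within a library do not depend on its depth. Those of Obox5 and Obox2 to Obox1 were chosen after the values had been seen and so carry no test. Of the fragments assigned to Obox5 or Obox1, Obox5 held 33.8% (95% Wilson interval 28.6% to 39.5%) and 47.5% (42.7% to 52.4%) in the controls. After Yy1 knockdown it held 62.0% (58.3% to 65.5%) and 60.8% (55.4% to 65.9%). Both knockdown shares lay above both control shares, with no overlap of the intervals, and both libraries gave nearly one value where their Obox5 levels differed. The controls differed from each other by more than counting error.

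Of the fragments assigned to Obox2 or Obox1, Obox2 held 33.6% and 40% in the controls and 53.9% and 47.8% after Yy1 knockdown. The knockdown shares were again the higher ones, but the intervals of control replicate 2 (35.0% to 45.2%) and knockdown replicate 2 (41.7% to 54.0%) overlapped. Obox5 against Obox2 gave 50.3% and 57.6% in the controls and 58.2% and 62.8% after knockdown, with overlapping intervals between neighbouring libraries. The sources used here do not say how reads that map to several copies were counted, so a value of a single copy may hold reads of another.

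**Figure D3:**
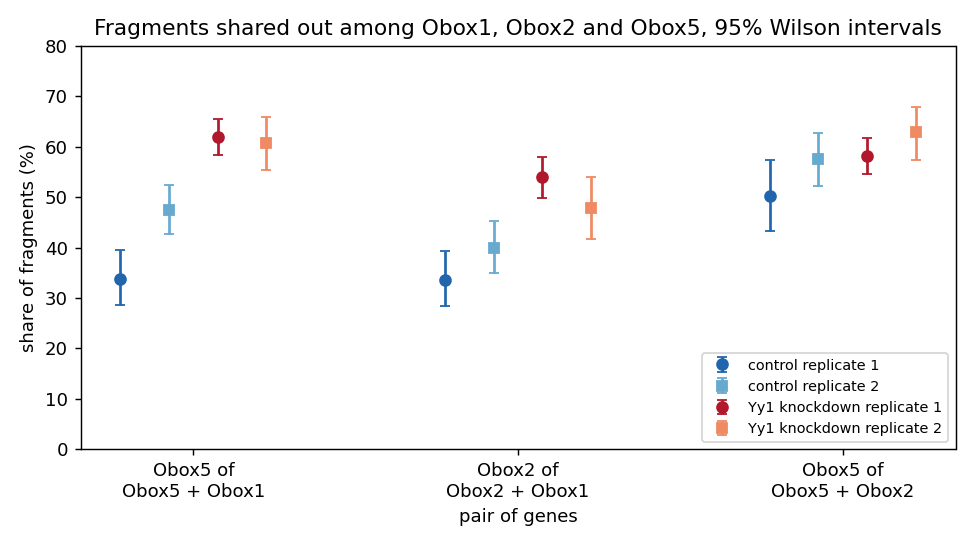
Share of fragments (%) that the first gene of each pair held, by library, with 95% Wilson intervals that cover counting error only. For Obox5 against Obox1 both knockdown libraries, 60.8% and 62.0%, lie above the controls at 33.8% and 47.5%.

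Outside the 5 genes, Obox8 was the next most abundant Obox row (ENSMUSG00000099216). It was listed at 112 and 63.5 FPKM in the controls and at 75.3 and 82.3 FPKM after Yy1 knockdown. The knockdown libraries lay between the controls. Its log2 fold change was -0.10 (limma adjusted p = 0.938). Obox7, like Obox1 a gene with oocyte-stored transcripts, was below the filter at 0.308 and 0.894 FPKM in the controls and 0.458 and 0.170 FPKM after knockdown, from 8 to 45 fragments.

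Annotated pseudogenes of Obox3 had higher mean levels after Yy1 knockdown in most cases, without passing the adjusted threshold. They were grouped after their values had been seen. Of 8 rows, 7 had the higher mean after knockdown and 5 had groups that did not overlap. Over all 49585 rows, low ones included, 16335 had the higher mean after knockdown and 5463 did not overlap in that direction. Of those 49585 rows, 19858 were at 0 in all libraries and could do neither, whereas 0 of the 8 were. Of the 4 tested, 2 had an unadjusted p under 0.05 in the upward direction, against 4.22% of all tested rows, and none passed after adjustment. The 8 rows summed to 10.04 and 12.3 FPKM in the controls and to 25.4 and 22.7 FPKM after knockdown, so both knockdown libraries lay above both controls. The sum averaged 11.1 ± 1.57 and 24.0 ± 1.95 FPKM (SD, n = 2).

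Obox3-ps5 (chr7:15293517-15304613) was listed at 3.04 and 2.70 FPKM in the controls and at 8.51 and 7.25 FPKM after Yy1 knockdown, from 105, 85, 291 and 213 fragments. The groups were well apart, and the replicates within each were close. The ratio of means was 2.75 and the log2 fold change 1.20, with a 95% interval from 0.70 to 1.69 (limma adjusted p = 0.390). Obox3-ps6 was listed at 2.25 and 2.53 FPKM in the controls and at 6.48 and 4.55 FPKM after knockdown, again without overlap. Its log2 fold change was 0.93 (limma adjusted p = 0.4997). Obox3-ps1, not tested because of its low level, had 8 and 3 fragments in the controls and 61 and 31 after knockdown.

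Of 39 Obox4 pseudogenes, 25 had the higher mean after knockdown, 6 the lower, and 8 were at 0 in all libraries. Their sum was 13.2 and 9.999 FPKM in the controls and 15.5 and 16.5 FPKM after knockdown, with both knockdown libraries above both controls. Most of this sum in every library came from Obox4-ps35, which had no RefSeq entry and whose values are given below. The sum therefore does not show that the other Obox4 rows separated upward. Single rows did not overlap upward in 4 cases, with at most 21 fragments per library in 3 of them, and downward in none. Over all 49585 rows, 16335 had the higher mean, and 5463 did not overlap upward and 3901 downward. Of those rows 19858 were at 0 in all libraries. The 4 of 39 are thus near the share over all rows and show nothing particular to these pseudogenes. Only Obox4-ps35 was above the filter, at 7.52 and 8.34 FPKM in the controls and 8.89 and 12.3 FPKM after knockdown (log2 fold change 0.37, limma adjusted p = 0.659). Over all 11 tested Obox rows, 9 fold changes were positive and 2 negative, with a median of 0.38. Upward separation without overlap was seen in 5 of the 11, beside 21.8% of all tested rows, and downward in none. These rows belong to a gene family and may share reads, so they cannot be treated as independent.

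**Figure D4:**
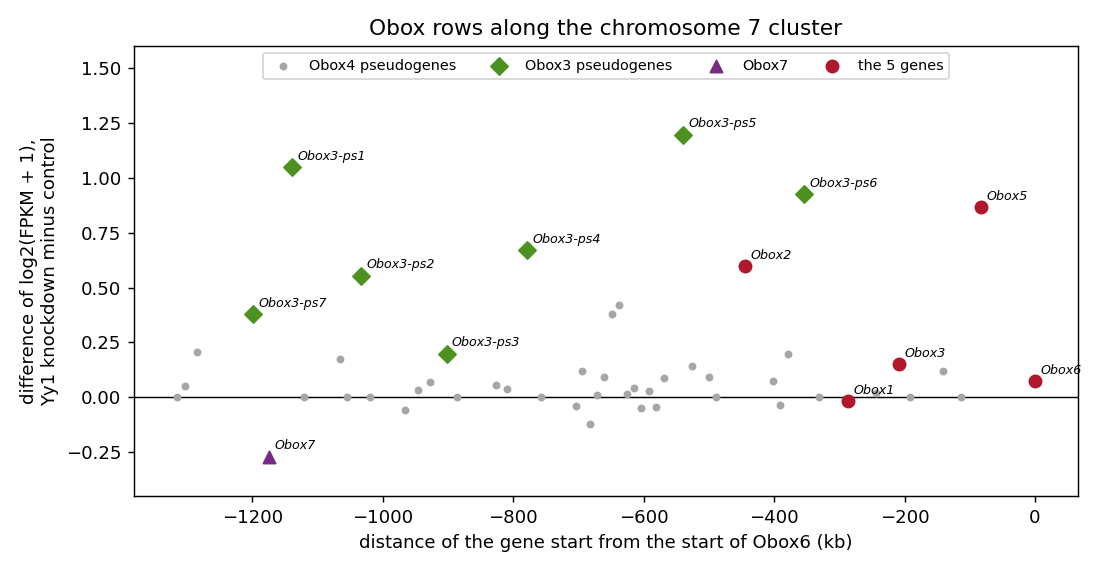
Difference of group means of log2(FPKM + 1), Yy1 knockdown minus control, for the 51 Obox rows on chromosome 7, by distance of the gene start from that of Obox6 (kb). Obox3 pseudogenes (green) lie above 0 along the cluster, most Obox4 pseudogenes (grey) near 0, and Obox1, Obox3 and Obox6 (red) near 0.

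Other homeobox genes did not move together. On a list of 67 symbols without Obox genes, 66 had a row and 31 were tested, with 17 positive and 14 negative fold changes and a median of 0.09. None passed after limma adjustment. At an unadjusted p under 0.05 2 of 31 were higher, beside 4.22% of all tested rows, and 1 was lower, beside 4.69%. Rhox9, of the X-linked reproductive homeobox cluster, was listed at 1.79 and 1.43 FPKM in the controls and at 6.33 and 5.79 FPKM after Yy1 knockdown (log2 fold change 1.44, limma adjusted p = 0.337). Its neighbour Rhox5 differed in the opposite direction, from 14.4 and 9.0 FPKM to 5.29 and 6.29 FPKM (log2 fold change -0.88, limma adjusted p = 0.518). Neither pair of groups overlapped. Rhox6 had a log2 fold change of 1.10 and Six4 one of 0.58 (limma adjusted p = 0.532 and 0.610). Both passed the filter only through the knockdown libraries, with control means of 0.729 and 0.723 FPKM.

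Other transcription factors of genome activation also differed in both directions. Of 30 listed activators of early transcription 26 were tested, with 14 positive and 12 negative fold changes, a median of 0.08 and none called by limma. Klf17, a factor stored in the egg, was listed at 61.2 and 38.2 FPKM in the controls and at 83.3 and 69.2 FPKM after Yy1 knockdown (log2 fold change 0.64, limma adjusted p = 0.556). Gabpa, an ETS family activator, was listed at 54.2 and 50.7 FPKM and at 78.4 and 76.4 FPKM (log2 fold change 0.55, limma adjusted p = 0.465). Klf4 and Rarg, a retinoic acid receptor, had log2 fold changes of -0.57 and -0.33 (limma adjusted p = 0.532 and 0.572).

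Transcripts typical of the 2-cell embryo, the stage at which OBOX proteins act, had mostly positive fold changes. Of 39 listed genes 34 were tested, 30 with a positive and 4 with a negative value, and a median of 0.41 beside 0.02 over all tested rows, of which 6446 had a positive and 5674 a negative value. With low genes included, 33 of the 39 had the higher mean after knockdown and 6 the lower. At an unadjusted p under 0.05, 5 were higher, beside 4.22% of all tested rows, and none lower, beside 4.69%, and limma called none after adjustment. Tcstv3, a 2-cell-stage gene, was listed at 3.13 and 2.19 FPKM in the controls and at 9.03 and 6.09 FPKM after Yy1 knockdown (log2 fold change 1.22, limma adjusted p = 0.462). Tdpoz3 had a log2 fold change of 1.09 and Usp17lc of 0.57. BC080695, at 1.19, passed the filter only through the knockdown libraries, with group means of 0.272 and 1.91 FPKM, and supports nothing about the list. Medians relative to the control mean were 0.45 in knockdown replicate 1 and 0.36 in replicate 2, so this list, unlike the sum of the 4 lower Obox genes, stood above the controls in both libraries.

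On the oocyte list, 39 of 52 genes were tested, 26 with a positive and 13 with a negative fold change, and a median of 0.15. At an unadjusted p under 0.05 none was higher, beside 4.22% of all tested rows. At that level 2 of 39 were lower, which is near the 4.69% of all tested rows. Limma called none after adjustment. The lower ones were Rnf114, a maternal ubiquitin ligase, at 13.8 and 13.9 FPKM in the controls and 7.88 and 7.96 FPKM after Yy1 knockdown, and Khdc3, of the subcortical maternal complex, with a log2 fold change of -0.67. Npm2, a histone chaperone of the egg, and Bcl2l10, an apoptosis regulator of the oocyte, had log2 fold changes of 0.37 and 1.27. Bcl2l10, at 3.17 and 1.96 FPKM in the controls and 15.4 and 3.36 FPKM after knockdown, owed its fold change mostly to knockdown replicate 1, the library in which the 4 lower Obox genes were also highest.

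The genes whose profile over the 4 libraries was most like that of the summed Obox level were Rnf126, Rpp25, Vhl, D7Ertd443e and Chtf8. Likeness was the root-mean-square difference of centred log2(FPKM + 1), over 4464 named protein-coding genes averaging 5 FPKM or more. It was 0.0231 for Rnf126 and 0.0448 for Chtf8, against a median of 0.270. With 4 libraries such a match is easily met, and 139 genes lay within 0.1.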

How the data were processed

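The deposited table gives FPKM per gene, made by the authors. Per the submitters' processing notes, the tools of the series included HISAT2 2.2.1 and Bowtie2 2.4.3 for alignment, Trim Galore 0.6.7, SAMtools 1.4.1, bedtools, featureCounts and R 4.0.3, with the mm10 build. Libraries were made with a stranded SMART-Seq kit from total RNA, per the labels' protocols. The sources used here do not give strand setting, annotation release or treatment of multi-mapping reads, so copies, overlapping genes and antisense partners are uncertain. The 26 other samples were not analysed here.

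Rows with a mean of at least 1 FPKM were tested with limma 3.58.1 (R 4.3.3) on log2(FPKM + 1), two-sided, with group alone, a mean-variance trend and Benjamini-Hochberg adjustment over 12120 rows, threshold 0.05. Whole fragments (within 0.02) were recovered for 12120 of 12120 rows; on simulated data 4745 of 4932 genes came out exactly. The fit was tested on simulated data. The members were chosen by their symbols. Both they and the lists were set when earlier results of these data were known. Named genes were the 5 members, Obox rows, Yy1, up to 4 genes per list by smallest p and 5 nearest profiles. All 55 Obox rows matched a gene ID and 53 a RefSeq entry; 4 of the 5 genes had a promoter entry. The planned protein comparison was not run. Alternatives were the pseudocount, filter, scaling, replicate block, limma-voom, robust moderation and leaving out each library.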

Additional observations from a re-analysis of the deposited data

How the results depend on the processing

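None of the 5 Obox genes was called in any of the 12 alternatives. The filter of 5 FPKM removed Obox1, Obox2, Obox3 and Obox5, which were then not tested. Over all rows, limma called 0; a filter of 5 FPKM gave 4 calls (1 higher, 3 lower), limma-voom on fragments 16 (2 higher, 14 lower) and robust moderation 1 (lower), and Yy1 passed in these 3. Leaving out each library in turn gave 0 to 0 calls. Replicate numbers were not shown to pair the libraries (correlation of deviations 0.0994 over rows); with the replicate block 0 rows were called, 1187 rather than 1079 had an unadjusted p under 0.05, and the unadjusted p of Obox5 was 0.100. The log2 ratio of the summed 5 genes was 0.08, and 0.63 without Obox6; leaving out single libraries gave -0.14 to 0.34.

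Several fold changes changed sign; the other end of the range over left-out libraries was -0.32 for Obox1, 0.64 for Obox3, 0.33 for Obox6, -0.50 for Obox8 and 1.02 for Obox3-ps7. Obox1 (-0.02) went to 0.09 without control replicate 2 and 0.28 without Yy1 knockdown replicate 2. Obox3 (0.15) went to -0.26 without control replicate 1 and -0.33 without knockdown replicate 1. Obox6 (0.07) went to -0.038 with quantile normalization, -0.19 without control replicate 2 and -0.08 without knockdown replicate 1. Obox8 (-0.10) went to 0.31 without control replicate 1. Obox3-ps7 (0.38) went to -0.27 without control replicate 1 and -0.25 without knockdown replicate 2. The cause was not tested. Obox5 and Obox2 kept their sign, at 0.50 to 1.23 and 0.15 to 1.05. Obox3-ps5 stayed between 1.09 and 1.43 and Obox3-ps6 between 0.71 and 1.18. Among the other named genes, leaving out single libraries gave 0.31 to 0.97 for Klf17, -1.19 to -0.56 for Rhox5, 0.66 to 1.54 for Rhox6, 0.678 to 1.498 for Tdpoz3, -0.76 to -0.37 for Klf4 and 0.31 to 2.23 for Bcl2l10. Median-ratio scaling lowered the median of all rows from 0.02 to just below 0. Counting error was larger relative to level for the lower Obox genes, with 48 to 432 fragments per library, than for Obox6. Replicates could still differ beyond it. The 95% Poisson intervals of Obox3 were 0.322 to 0.579 FPKM in control replicate 1 and 1.32 to 1.82 FPKM in control replicate 2.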
